A study of Mus musculus with 11 samples.

Results

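The results concern 10 genes whose products restrain signalling from the T cell receptor: the ubiquitin ligase genes Cblb, Cbl, Rnf128 and Itch, the diacylglycerol kinase genes Dgka and Dgkz, the tyrosine phosphatase genes Ptpn22, Ptpn2 and Ptpn6, and Ubash3a. They were chosen by name as negative regulators, with earlier results of these data known. Every probe set that the array annotation pairs with exactly 1 of these symbols was used. This gave 24 of the 34945 probe sets with 1 symbol and 10 of the 18193 genes they represent. All 10 genes passed the filter on low values, which kept 14795 genes.

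The arrays measured RNA of effector CD8 T cells from pmel-1 mice, whose T cells carry a transgenic receptor for a peptide of the melanocyte protein gp100, so that all groups share this genotype. CD8 T cells were first enriched as naive (CD44-) or central memory (CD44+), activated on plate-bound CD3/CD28, expanded for 1 week, and then restimulated with allogeneic feeder cells loaded with human gp100 peptide, all in medium with interleukin 2 at 10 cetus units. After 2 weeks the cultures either received CD3/CD28 for a final 4 h or were left without it, and each condition therefore compares cultured effector cells by the origin of their precursors, not naive or memory cells themselves. Memory-derived cultures gave 3 arrays without and 3 with the final stimulation, and naive-derived cultures gave 2 without and 3 with it, over 3 separate experiments. A naive-derived unstimulated array of experiment 3 was not analysed here. The age of the mice and the number that supplied each culture are not given in the sources used here.

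T cell receptor engagement activates the kinases LCK and ZAP70, which assemble signalling complexes and cause diacylglycerol to be made at the membrane. The 10 gene products act against this chain at different steps. The CBL proteins, GRAIL (encoded by Rnf128) and ITCH attach ubiquitin to signalling proteins and are known for their part in T cell tolerance. The diacylglycerol kinases convert diacylglycerol into phosphatidic acid and so end its signal to RASGRP1 and protein kinase C theta. The phosphatases remove phosphate from LCK, ZAP70, the JAK kinases and their neighbours, and UBASH3A is an adaptor-like protein with ubiquitin-binding and phosphatase-like domains.

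The promoters of the 3 genes with the widest range of group means (Ptpn6, Dgka and Ubash3a), and of Cblb as a gene that passed the test in no comparison, are shown to let the sequences of members with different behaviour be compared. Each line gives the 250 bases before a RefSeq transcription start (GRCm38.p6), 5′ to 3′ along the gene's strand, with capitals marking every match to 1 of 5 short motifs searched on both strands.
Ptpn6, chr6:124738710-124738959, minus strand: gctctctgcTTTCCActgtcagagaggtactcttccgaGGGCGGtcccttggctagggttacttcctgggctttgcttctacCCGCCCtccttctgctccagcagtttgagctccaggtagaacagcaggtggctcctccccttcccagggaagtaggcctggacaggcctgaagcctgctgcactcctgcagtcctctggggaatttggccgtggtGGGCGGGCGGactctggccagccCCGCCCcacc
Dgka, first of 4 starts, chr10:128745085-128745334, minus strand: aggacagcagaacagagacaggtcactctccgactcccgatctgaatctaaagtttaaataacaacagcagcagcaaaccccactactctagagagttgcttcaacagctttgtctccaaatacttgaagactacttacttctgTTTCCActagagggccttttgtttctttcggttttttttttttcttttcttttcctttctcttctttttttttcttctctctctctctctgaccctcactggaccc
Ubash3a, chr17:31207816-31208065, plus strand: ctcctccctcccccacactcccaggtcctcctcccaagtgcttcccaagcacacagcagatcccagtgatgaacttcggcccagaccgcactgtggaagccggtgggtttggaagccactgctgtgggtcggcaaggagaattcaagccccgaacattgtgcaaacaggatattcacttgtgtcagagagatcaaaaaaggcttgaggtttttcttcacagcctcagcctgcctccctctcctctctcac
Cblb, chr16:52031299-52031548, plus strand: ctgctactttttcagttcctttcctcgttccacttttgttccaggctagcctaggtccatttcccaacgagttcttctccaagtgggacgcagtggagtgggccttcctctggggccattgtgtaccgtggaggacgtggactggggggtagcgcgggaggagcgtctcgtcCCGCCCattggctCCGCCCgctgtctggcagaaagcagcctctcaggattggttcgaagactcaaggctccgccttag

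The motifs were TGGAAA (the core bound by NFAT, the calcium-responsive factor of T cells), GGGCGG (the GC box), GTAAACA (forkhead factors such as FOXO), TGANTCA (AP-1) and TTCNNNGAA (STAT factors). Among the 32851 mouse windows of the same length, 18.6% held the NFAT core, 32.7% the GC box, 3.17% the forkhead motif, 6.75% the AP-1 motif and 7.02% the STAT motif. The Ptpn6 window held 1 NFAT core and 5 GC boxes, of which 2 overlap. The Dgka window held 1 NFAT core and no GC box, while the windows of the 3 other Dgka starts, not printed, held 2, 3 and 2 GC boxes and 1, 0 and 1 NFAT cores. In this study the start in use was not measured. The Ubash3a window held no match to any of the 5, and the Cblb window held 2 GC boxes. Promoter entries were matched for 8 of the 10 members, in 13 windows. A match is a description of letters, and no binding was measured here.

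The deposited values were taken as log10 and are given below as log2 levels, on which a difference of 1 is a 2-fold difference. The log base was inferred from the spiked-in hybridization controls, so fold values rest on that inference. The levels of different genes are levels of different probe sets and are not set against each other. All differences come from a single limma fit over the 4 groups, with p-values adjusted by Benjamini and Hochberg over all 14795 genes and a threshold of 0.05. The arrays are labelled as biological replicates.

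Several measures of the arrays moved with the groups. The 3 memory-derived unstimulated arrays lay apart from the rest on the first principal component, which held 56.5% of the variance. They scored from 40.3 to 77.4, with array 3 the farthest, against -37.5 to -11.6 on the other arrays. The log2 difference between the 3′ and 5′ actin probe sets, a measure of RNA integrity and labelling, was 0.875 to 1.166 in memory-derived unstimulated cells. It was 1.431 to 1.729 in memory-derived stimulated, 1.536 to 1.589 in naive-derived unstimulated and 1.93 to 2.599 in naive-derived stimulated cells. The same measure for Gapdh did not follow this order. It was -1.509 to -1.289, -1.433 to -1.384, -1.648 to -1.416 and -1.819 to -1.475 in the same order of groups. Its ranges overlapped except between the stimulated cells of the 2 origins. All 9 markers of CD8 T cells were above the filter level of 1.54 on every array, while Cd4 lay at 0.98 to 1.15. Cd4 was 1 of 4 measured markers of NK cells and of T cells other than CD8, of which 3 passed the filter. Zbtb7b lay at 2.655 to 3.172, above the filter level on every array, and Foxp3 and Ncr1 reached at most 1.74 and 1.606. Of the 8 measured B cell markers 6 passed the filter, and their highest value was 2.588, for Blk. Of the 11 markers of myeloid cells, 9 passed the filter. The summed linear level of all 11 was 133.1 to 165 in memory-derived unstimulated and 107.1 to 116.7 in memory-derived stimulated cells. It was 67.9 to 76.7 in naive-derived unstimulated and 63.4 to 82.5 in naive-derived stimulated cells. Itgax and Cd68 carried this sum. Csf1r, Lyz2, Adgre1 and Cd74 had their lowest group mean in memory-derived unstimulated cells, where the mean of Lyz2 was below the filter level. Cd14 was higher in memory-derived cells, at means of 2.71 without and 2.81 with stimulation, than in naive-derived cells, at 1.51 and 1.60. The neutrophil genes S100a8 and S100a9 stayed below the filter level on every array. The part of any of these measures in the results below was not tested.

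The comparison of stimulated with unstimulated memory-derived cells asked what the final 4 h of CD3/CD28 did to each brake. Ptpn6, Dgka, Ubash3a and Dgkz were lower after stimulation, by 4.14-fold, 3.71-fold, 2.01-fold and 1.76-fold. Thus 4 of 10 members were lower and 0 were higher. Over all genes 31.6% passed the threshold, 17.3% lower and 14.3% higher. The group ranges did not overlap for the same 4 members, all lower; by that rule 24.7% of all genes were lower and 21.9% higher. The median difference of the 10 members was -0.18, and that of all genes was 0.00. In bulk RNA, fewer cells of a type and less RNA per cell cannot be told apart. The 4 falls passed the threshold in each of the 20 alternative analyses of this comparison, and without memory-derived unstimulated array 3 they were -2.05 for Ptpn6, -1.55 for Dgka, -0.99 for Ubash3a and -0.74 for Dgkz.

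The comparison of naive-derived with memory-derived cells without the final stimulation asked whether the resting brakes differed by origin. It named the same 4 members. Ptpn6 was 2.99-fold lower in naive-derived cells, Dgka 2.03-fold, Ubash3a 2.01-fold and Dgkz 1.82-fold. Again 4 of 10 were lower and 0 higher, against 25.8% of all genes past the threshold, 14.9% lower and 10.9% higher. Ranges did not overlap for 6 members, all lower, where 29% of all genes were lower and 24.4% higher by that rule. Both comparisons use the 3 memory-derived unstimulated arrays, so they are not separate evidence about these genes. Without array 3 of that group the same 4 members remained past the threshold.

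In naive-derived cells 0 of 10 members passed the threshold after stimulation, where 2 genes of 14795 (0.0135%) did in limma. At an unadjusted p below 0.05 there were 1252 genes, 2 of them members, Ptpn6 and Ubash3a. Between stimulated naive-derived and stimulated memory-derived cells 0 of 10 members passed, against 3.7% of all genes. At an unadjusted p below 0.05 there were 2418 genes, among them 3 members, Rnf128, Dgka and Ubash3a. The interaction test, which compares the response of the 2 origins, named Dgka and Ptpn6, 2 of 10 members and both in the direction of a smaller fall in naive-derived cells, against 2.71% of all genes past the threshold and 1.62% in that direction. With the experiment as a block this test named 0 members and 26 genes in place of 401. It also named 0 members without any 1 of the 3 memory-derived stimulated arrays, naive-derived stimulated arrays 1 or 2, or naive-derived unstimulated arrays 1 or 2.

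**Figure D1:**
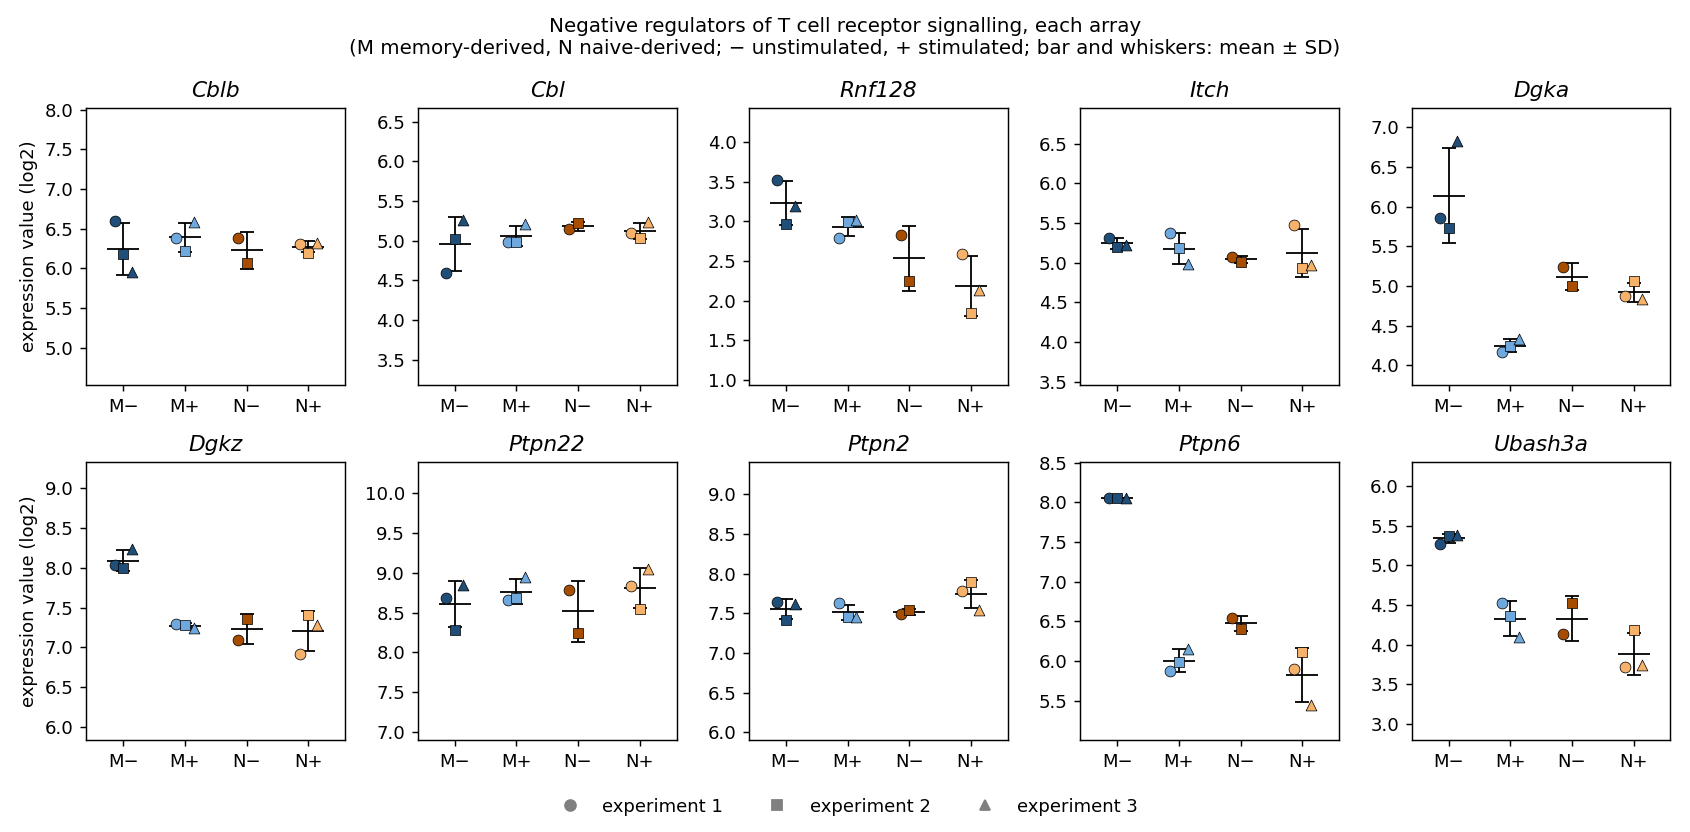
Log2 level of each of the 10 members on each of the 11 arrays, by group (memory-derived unstimulated M−, memory-derived stimulated M+, naive-derived unstimulated N−, naive-derived stimulated N+), with points for arrays and a bar for the group mean; all panels span the same height. Ptpn6, Dgka, Dgkz and Ubash3a stand highest in M−, while Cblb, Cbl, Itch, Ptpn22 and Ptpn2 overlap across most groups.

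Among the ubiquitin ligases, Cblb, which sets the need for CD28 co-stimulation, stayed near 6.2 to 6.4 in every group mean. Its arrays read 6.59, 6.18 and 5.96 in memory-derived unstimulated cells, 6.38, 6.21 and 6.58 in memory-derived stimulated cells, 6.39 and 6.06 in naive-derived unstimulated cells, and 6.30, 6.19 and 6.32 in naive-derived stimulated cells. All 4 groups overlapped. The change with stimulation was 0.15 in memory-derived cells, with a 95% interval from -0.24 to 0.53, and 0.05 in naive-derived cells, from -0.38 to 0.48. The adjusted p was 0.573 and 0.973 in limma. These intervals leave room for changes of up to about 0.5 in either comparison. The 2 other Cblb probe sets passed the threshold in no comparison, but 1458469_at was not level by origin. It was higher in naive-derived cells by 0.45 without stimulation (adjusted p = 0.319 in the fit of all probe sets). The ranges did not overlap there, and 24.4% of all genes were higher by that rule. With stimulation its difference by origin was 0.63, with an interval from 0.05 to 1.22 before adjustment (adjusted p = 0.283).

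Cbl, the closest relative of Cblb, passed the threshold in no comparison. Its means were 4.96 ± 0.34 (SD, n = 3) and 5.06 ± 0.13 (SD, n = 3) in memory-derived unstimulated and stimulated cells, and 5.18 ± 0.057 (SD, n = 2) and 5.12 ± 0.10 (SD, n = 3) in naive-derived cells. Its difference with stimulation of memory-derived cells was 0.10, with an interval from -0.27 to 0.47. Itch, a HECT-type ligase of the NEDD4 family, had means of 5.24 ± 0.065, 5.18 ± 0.20, 5.04 ± 0.048 and 5.13 ± 0.30 (SD) in the same order of groups. Its difference in memory-derived cells was -0.07, with an interval from -0.42 to 0.29. Without stimulation the ranges of Itch did not overlap between origins, at 5.19 to 5.32 in memory-derived and 5.01 to 5.07 in naive-derived cells. That difference of -0.20 did not pass the threshold (adjusted p = 0.465 in limma).

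The Itch probe sets did not all behave alike. Of the 4 probe sets for Itch, 1431316_at and 1440582_at were lower after stimulation of memory-derived cells by -0.56 and -0.42. Their adjusted p was 0.0316 and 0.021 when all 27046 probe sets were fitted, of which 14.5% were lower. Both were dim, with means of 2.26 and 2.02 before stimulation and 1.71 and 1.60 after, close to the filter level of 1.54. The bright probe set, 1415769_at, is the one that represents the gene.

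Rnf128 encodes GRAIL, a membrane ligase linked to T cell anergy. Its arrays read 3.52, 2.97 and 3.20 in memory-derived unstimulated cells and 2.80, 2.99 and 3.01 in memory-derived stimulated cells. In naive-derived cells they read 2.82 and 2.25 without stimulation and 2.59, 1.85 and 2.13 with it. Naive-derived arrays were thus below memory-derived arrays in both states, with no overlap in either; with stimulation 14.3% of all genes were lower with no overlap. The differences were -0.69 (SE 0.247, adjusted p = 0.0612 in limma) without stimulation and -0.74 (SE 0.221, adjusted p = 0.104) with it, so neither passed the threshold. Within experiments the difference was -0.70 and -0.72 without stimulation, and from -1.14 to -0.20 with it. The lack of overlap fixed the sign of these differences, so only their sizes add to it.

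The second Rnf128 probe set, 1449036_at, was also dim, with group means of 2.05 to 3.03. It gave -0.73 for origin without stimulation, and this value passed the threshold in the fit of all probe sets (adjusted p = 0.0131, where 12.1% were lower). Rnf128 passed it in 7 of 19 alternatives for the unstimulated cells, 1 of which averages both probe sets and 6 of which use the first alone, with the experiment as a block among them (adjusted p = 0.0445). With control scaling the adjusted p was 0.0471. In the stimulated cells the first probe set passed in 1 of 19, without naive-derived stimulated array 1 (adjusted p = 0.0458). With the final stimulation Rnf128 changed by -0.30 in memory-derived cells and -0.34 in naive-derived cells, with intervals from -0.78 to 0.19 and from -0.89 to 0.20.

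The diacylglycerol kinases both fell in stimulated memory-derived cells. Dgka, the calcium-regulated isoform of resting T cells, read 5.86, 5.74 and 6.83 in memory-derived unstimulated cells and 4.17, 4.24 and 4.33 after stimulation. Every unstimulated array was above every stimulated array, and array 3 was about 1 unit above the other unstimulated arrays. The fall was -1.89 (SE 0.241, adjusted p = 0.000357 in limma). It was -1.68, -1.497 and -2.49 in experiments 1, 2 and 3.

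In naive-derived cells Dgka read 5.24 and 5.00 without stimulation and 4.87, 5.06 and 4.84 with it, and these groups overlapped. The difference was -0.20, with an interval from -0.79 to 0.40 (adjusted p = 0.897 in limma). Without stimulation the naive-derived cells were lower than memory-derived cells by -1.02 (SE 0.269, adjusted p = 0.0181 in limma). That call did not hold with only the arrays of these 2 groups (adjusted p = 0.0759), or without naive-derived unstimulated array 1 (0.0608) or array 2 (0.126). When array 3 of the memory-derived unstimulated group was left out the difference was -0.68.

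With stimulation the naive-derived arrays lay above the memory-derived arrays for Dgka, by 0.68 (SE 0.241), with no overlap between 4.84 to 5.06 and 4.17 to 4.33, and by 0.70, 0.82 and 0.50 in the 3 experiments. Among all genes 11.4% were higher with no overlap. The value missed the threshold (adjusted p = 0.183 in limma). It passed with only the 2 groups compared (adjusted p = 0.0301) and when array 3 of the memory-derived unstimulated group was left out (0.0112). The unstimulated memory-derived arrays of Dgka had an SD of 0.60, against 0.082 to 0.17 in the other groups, and the fit shares 1 spread over the 4 groups. The test of a difference in response gave 1.69 (SE 0.361, interval 0.90 to 2.49, adjusted p = 0.0411 in limma). It passed the threshold in 6 of 19 alternatives, and with the experiment as a block the adjusted p was 0.0840.

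Dgkz, the other main isoform of T cells, read 8.04, 7.99 and 8.24 in memory-derived unstimulated cells and 7.30, 7.28 and 7.24 after stimulation, with no overlap. The fall was -0.82 (SE 0.148, adjusted p = 0.0022 in limma). In naive-derived cells it read 7.09 and 7.36 without stimulation and 6.92, 7.40 and 7.28 with it. The naive-derived difference was -0.02, with an interval from -0.39 to 0.34. Without stimulation Dgkz was lower in naive-derived cells by -0.86 (SE 0.166, adjusted p = 0.00404 in limma), and with stimulation the origins differed by -0.07, with an interval from -0.40 to 0.26. The difference in response was 0.79 (SE 0.223) and did not pass the threshold (adjusted p = 0.0751).

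The dimmer Dgkz probe set, 1426738_at, passed the threshold in no comparison. Its means were 5.06 and 4.76 in memory-derived cells without and with stimulation and 4.69 and 4.36 in naive-derived cells. Its differences of -0.30 with stimulation of memory-derived cells and -0.38 with origin did not pass the threshold in the fit of all probe sets (adjusted p = 0.193 and 0.158). In the comparisons where the bright probe set was level, the dim one gave -0.32 with stimulation of naive-derived cells and -0.40 by origin in stimulated cells, against -0.02 and -0.07. The sizes given for Dgkz therefore rest on probe set 1452169_a_at. Dgka had a single probe set, 1418578_at.

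**Figure D2:**
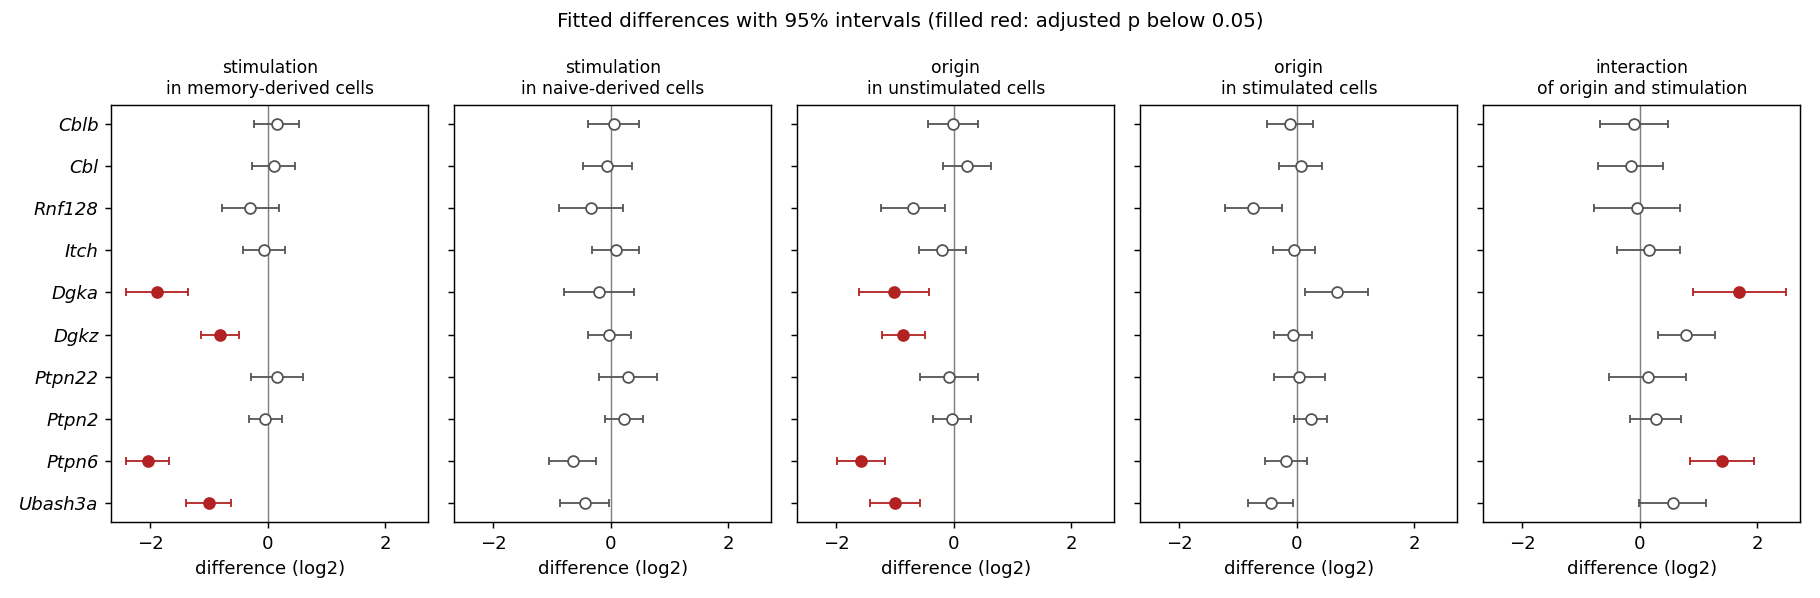
Log2 difference of each member in the 5 comparisons, with bars for the 95% interval of the limma fit and filled red points for those past the threshold. The 4 filled points of the first comparison, Ptpn6 at -2.05, Dgka at -1.89, Ubash3a at -1.01 and Dgkz at -0.82, belong to the same genes as the filled points of the comparison of origins without stimulation.

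Ptpn6 encodes SHP-1, a phosphatase brought to the membrane by inhibitory receptors, and it had the widest range of the 10 members. It read 8.06, 8.06 and 8.05 in memory-derived unstimulated cells, 5.88, 5.98 and 6.16 in memory-derived stimulated cells, 6.54 and 6.41 in naive-derived unstimulated cells, and 5.90, 6.12 and 5.45 in naive-derived stimulated cells. The memory-derived unstimulated arrays were more than 1.5 units above every other array. The fall with stimulation was -2.05 (SE 0.164, adjusted p = 3.83e-05 in limma), and it was -2.18, -2.07 and -1.90 within the 3 experiments. The summed level of the myeloid markers was also highest in this group, at 133.1 to 165 against 63.4 to 116.7 on all other arrays, and its part in this result was not tested. That sum was carried by Itgax and Cd68, and other markers of the list went both ways. Csf1r and Adgre1 were lowest in the same group, at means of 2.46 and 1.69. Cd14 had means of 2.71 and 2.81 in memory-derived cells without and with stimulation, and of 1.51 and 1.60 in naive-derived cells.

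In naive-derived cells Ptpn6 also lay lower on all 3 stimulated arrays than on either unstimulated array, a lower range that 12.8% of all genes showed. The difference was -0.65 (SE 0.183), with an interval from -1.05 to -0.25 before adjustment, and did not pass the threshold (adjusted p = 0.359 in limma). Without stimulation the naive-derived cells were lower than memory-derived cells by -1.58 (SE 0.183, adjusted p = 0.000341 in limma). With stimulation the origins overlapped, and the difference was -0.18, with an interval from -0.54 to 0.18. The response differed by origin by 1.40 (SE 0.246, interval 0.86 to 1.94, adjusted p = 0.0258 in limma). This passed the threshold in 10 of 19 alternatives, and with the experiment as a block the adjusted p was 0.0634.

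The second Ptpn6 probe set, 1456694_x_at, was also lower in both comparisons that Ptpn6 passed between 2 groups, with smaller sizes. Its means were 6.06 and 4.96 in memory-derived cells and 5.30 and 5.05 in naive-derived cells. The fall with stimulation of memory-derived cells was -1.11 (adjusted p = 0.0032) and the difference with origin was -0.76 (adjusted p = 0.0404) in the fit of all probe sets. By origin in stimulated cells it gave 0.09 where the first gave -0.18, neither past the threshold, and its difference in response of 0.86 did not pass (adjusted p = 0.155). The suffix of its name marks a probe set that may also bind other transcripts.

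Ubash3a read 5.27, 5.37 and 5.38 in memory-derived unstimulated cells and 4.53, 4.37 and 4.09 after stimulation. In naive-derived cells it read 4.13 and 4.53 without stimulation and 3.72, 4.19 and 3.74 with it. The memory-derived unstimulated arrays stood above all others, and the remaining 3 groups overlapped. The fall was -1.01 (SE 0.173, adjusted p = 0.00162 in limma), and the difference of origins without stimulation was -1.01 (SE 0.193, adjusted p = 0.00395). In naive-derived cells the difference with stimulation was -0.45, with an interval from -0.87 to -0.02 before adjustment (adjusted p = 0.586). With stimulation the origins differed by -0.45 (adjusted p = 0.219), and the difference in response was 0.56, with an interval from -0.01 to 1.13 (adjusted p = 0.221).

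The second Ubash3a probe set, 1431698_at, was above the filter level on only 4 of the 11 arrays. It read 2.00 to 2.24 in memory-derived unstimulated cells, and on all stimulated arrays of both origins it lay below that level, so no size is given for its fall. Its order of groups placed memory-derived unstimulated cells highest, as for the brighter probe set 1456065_at. Naive-derived unstimulated cells came next, at a mean of 1.67, above memory-derived stimulated cells at 1.01. The brighter probe set had a mean of 4.33 in both of these groups. By origin without stimulation the dim probe set did not pass the threshold (adjusted p = 0.0959 in the fit of all probe sets).

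Ptpn22 encodes a phosphatase that works with the kinase CSK on LCK and ZAP70. Its means were 8.60 ± 0.29 (SD, n = 3) and 8.76 ± 0.16 (SD, n = 3) in memory-derived unstimulated and stimulated cells, and 8.52 ± 0.38 (SD, n = 2) and 8.81 ± 0.25 (SD, n = 3) in naive-derived cells. All groups overlapped, and it passed the threshold in no comparison. The change with stimulation was 0.16 in memory-derived cells, from -0.28 to 0.60, and 0.29 in naive-derived cells, from -0.20 to 0.79.

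Ptpn2 encodes a phosphatase of LCK and of JAK and STAT proteins, and its 4 probe sets disagreed. The bright probe sets were level with stimulation of memory-derived cells. Probe set 1438562_a_at, which represents the gene, had group means of 7.55, 7.51, 7.52 and 7.74, and 1417140_a_at had 6.87, 6.88, 7.09 and 7.15. By origin 1417140_a_at gave 0.22 without stimulation and 0.27 with it, neither past the threshold (adjusted p = 0.252 and 0.278 in the fit of all probe sets). For stimulation of memory-derived cells 1438562_a_at gave -0.04 (interval -0.33 to 0.24). In naive-derived cells it lay at 7.55 to 7.90 with stimulation and 7.49 to 7.54 without, a higher range that 13.6% of all genes showed, and the difference of 0.22 missed the threshold (adjusted p = 0.739 in limma). The dim probe sets moved up. Probe set 1425197_at read 3.27, 3.31 and 2.71 in memory-derived unstimulated cells and 4.15, 4.13 and 4.05 after stimulation, while naive-derived arrays lay at 3.90 and 4.04 without stimulation and at 4.36, 4.50 and 4.398 with it.

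For that probe set the memory-derived unstimulated arrays were lowest, whereas they were highest for Ptpn6 and Dgka. Its difference was 1.01 (adjusted p = 0.00119) with stimulation of memory-derived cells and 0.88 (adjusted p = 0.00618) with origin in unstimulated cells. Probe set 1425198_at gave 0.54 (adjusted p = 0.027) and 0.57 (adjusted p = 0.0438) in the same comparisons. These come from the fit of all probe sets, in which 13.6% and 10.3% were higher. The transcripts that each probe set binds were not examined, and no direction is given for Ptpn2 as a gene.

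**Figure D3:**
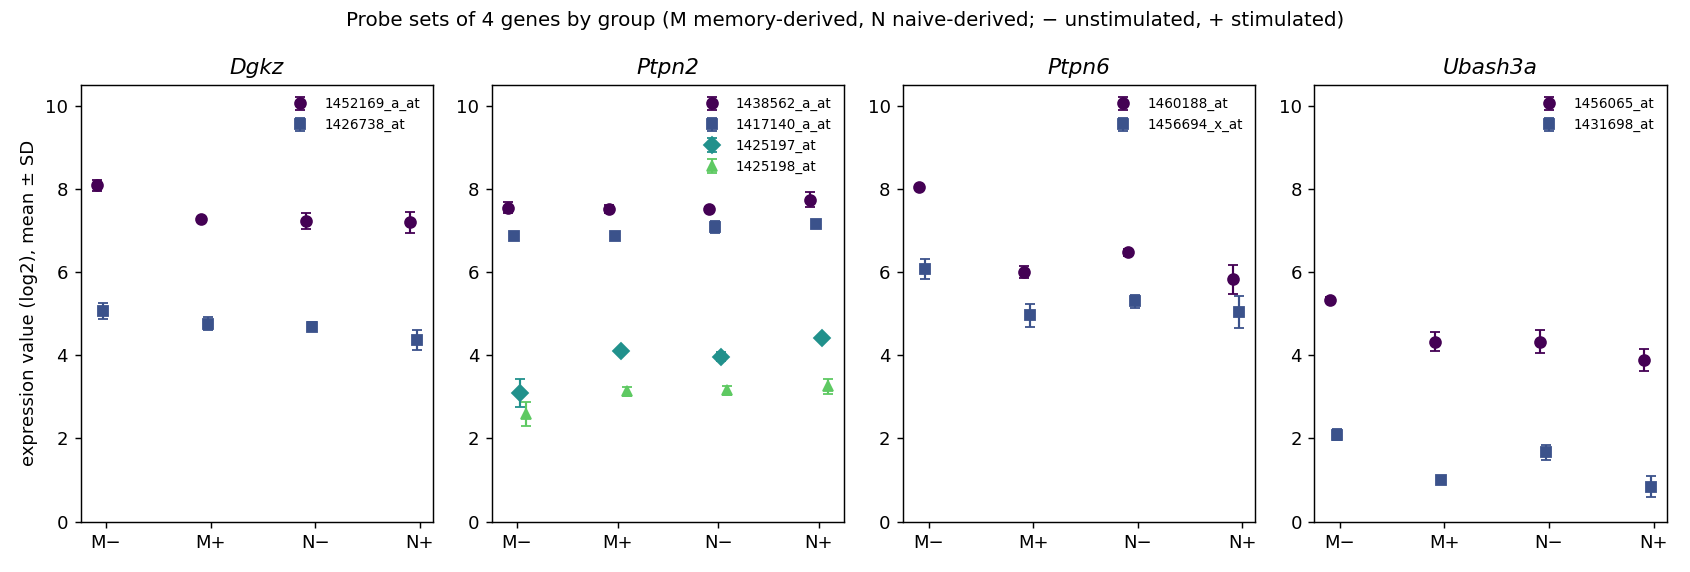
Mean log2 level and SD of every probe set of Dgkz, Ptpn2, Ptpn6 and Ubash3a in the 4 groups, with 1 marker shape per probe set. For Ptpn6 both probe sets are highest in memory-derived unstimulated cells. For Ptpn2 the 2 dim probe sets are lowest there, and the 2 bright ones differ little between the memory-derived groups.

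The other genes of these pathways were taken from 4 lists with 89 genes, drawn up with earlier results of these data known. Of 27 tested phosphatases, adaptors and kinases listed as restraining the receptor, 12 were lower and 5 higher with stimulation of memory-derived cells. Of all genes 17.3% were lower and 14.3% higher, and the median of the 27 was -0.21. The list also holds Ptprc, which was among the 12 lower (-0.87, adjusted p = 0.0206 in limma), and Ptpn11. Whether each listed gene acted as a brake in these cells was not tested. Among the falls were Lax1, a membrane adaptor (-2.21, SE 0.240, adjusted p = 0.000169 in limma), and Inpp5d, which encodes the lipid phosphatase SHIP-1 (-2.05, SE 0.200, adjusted p = 0.000104). Csk, the kinase that phosphorylates the inhibitory site of LCK, fell by 0.82 (SE 0.135, adjusted p = 0.00131), and Pag1, the membrane adaptor that binds CSK, fell by 1.13 (SE 0.194, adjusted p = 0.00166). The rises included Sla, an adaptor that lowers receptor levels (1.46, SE 0.203), and Rasa2, a RAS GTPase-activating protein (1.09, SE 0.157). Ubash3b, the close relative of Ubash3a, rose by 0.94 (SE 0.175, adjusted p = 0.00255) where Ubash3a fell.

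By origin without stimulation, 10 of these 27 genes were lower and 5 higher in naive-derived cells, beside 14.9% and 10.9% of all genes. The median of the 27 was -0.10, beside -0.01 for all genes, and with control scaling 3 of the 27 were higher. Dok2, an adaptor that recruits RAS inhibitors, was lower by -2.64 (SE 0.179, adjusted p = 2.86e-05 in limma) and Lax1 by -2.10. Csk was lower by -0.49 and Pag1 by -0.69, while the phosphatase gene Ptprj was higher by 1.16 and Sla by 1.02. Ubash3b was not past the threshold at 0.20 (adjusted p = 0.502). In naive-derived stimulation 0 of the 27 passed. For the difference in response 3 were higher and 0 lower, beside 1.62% and 1.09% of all genes. That count of the 27 was 0 and 0 with the experiment as a block and with control scaling.

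Of 14 tested genes of the diacylglycerol branch, 4 were lower and 2 higher with stimulation of memory-derived cells, beside 17.3% and 14.3% of all genes. The median of the 14 was -0.02, and 1 was higher with control scaling or when array 3 of the memory-derived unstimulated group was left out. Both main effectors of diacylglycerol in T cells fell with the kinases that remove it. Prkcq, which encodes protein kinase C theta, fell by 2.02 (SE 0.191, adjusted p = 8.61e-05 in limma), and Rasgrp1, which encodes the exchange factor that activates RAS, fell by 1.69 (SE 0.128, adjusted p = 3.31e-05). Another kinase isoform, Dgkd, rose by 0.95 (SE 0.173, adjusted p = 0.00222), and Dgke rose by 0.51 (SE 0.165, adjusted p = 0.0363). By origin without stimulation, 2 of the 14 were lower and 3 higher, beside 14.9% and 10.9% of all genes. Prkcq was at -1.84, Rasgrp1 at -1.10, Snx27, a sorting protein that binds DGKZ, at 0.61 and Dgke at 0.60. Dgkd was not past the threshold at 0.21. With control scaling 0 of the 14 were higher in that comparison.

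Of 19 tested genes around the ligases, 5 were lower and 2 higher with stimulation of memory-derived cells, beside 17.3% and 14.3% of all genes. The median of the 19 was -0.11. The 5 became 3 when array 3 of the memory-derived unstimulated group was left out and 2 with the mean of probe sets, and the 2 became 1 with control scaling. Nedd4, a ligase related to Itch, fell by 0.80 (SE 0.181, adjusted p = 0.00657 in limma), and Sh3kbp1, an adaptor that binds CBL proteins, fell by 0.73 (SE 0.136, adjusted p = 0.00247). Ndfip2, an activator of ITCH and related ligases, rose by 0.62, and the ligase gene Traf6 by 0.55. By origin without stimulation 3 were lower and 0 higher, beside 14.9% and 10.9% of all genes. Nedd4 at -0.94 and Wwp2, another relative of Itch, at -0.71 led the 3, and 1 was lower with the mean of probe sets. The 3 other comparisons named 0 of the 19.

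Of 17 tested substrates and partners, 4 were lower and 3 higher with stimulation of memory-derived cells, beside 17.3% and 14.3% of all genes. The median of the 17 was -0.18. The subunits of phosphoinositide 3-kinase Pik3cd and Pik3r1 fell by 1.96 (SE 0.161) and 1.41 (SE 0.186), while Stat5a and Stat5b, encoding substrates of PTPN2, rose by 2.88 (SE 0.276) and 1.18 (SE 0.119). By origin without stimulation 3 were lower and 5 higher, beside 14.9% and 10.9% of all genes. Pik3r1 was at -1.63, Jak1 at -1.01, Stat5a at 2.76 and Stat5b at 1.12. The 5 became 2 with control scaling, 3 with the experiment as a block and 3 when array 3 of the memory-derived unstimulated group was left out. Zap70, a kinase that several of the brakes act on, was level at 7.43 and 7.44 in memory-derived cells without and with stimulation and at 7.68 and 7.58 in naive-derived cells. Its difference with stimulation of memory-derived cells was 0.01, with an interval from -0.32 to 0.33. Lck was not analysed here, since no probe set carried its symbol alone.

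**Figure D4:**
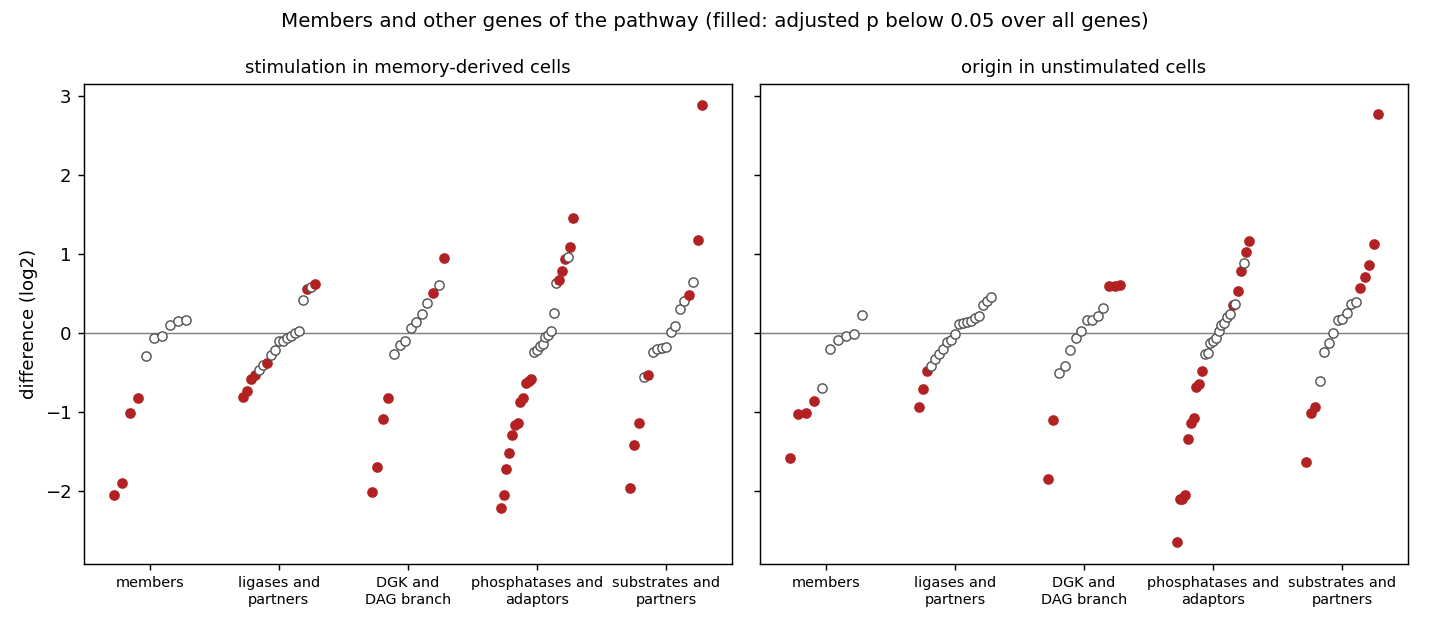
Log2 differences of the 10 members and of the tested genes of the 4 pathway lists, with stimulation in memory-derived cells and by origin in unstimulated cells; each point is a gene and filled points passed the threshold. Members past the threshold lie below 0 in both comparisons, while each pathway list holds filled points on both sides with stimulation, reaching from -2.21 for Lax1 to 2.88 for Stat5a.

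The genes whose values over the 11 arrays were most like those of the 3 widest-ranging members were found by the root mean square difference after centring each gene on its mean. For Ptpn6 they were Sting1, which encodes a sensor adaptor of cytosolic DNA signalling, at 0.170, and Rcsd1 at 0.197. For Dgka they were Irf1, a transcription factor of the interferon response, at 0.141, and Lgals9, which encodes galectin-9, at 0.163. For Ubash3a they were Slc25a16 at 0.136 and Slc10a7 at 0.146. Irf1 had the same order of groups as Dgka, with means of 6.04 and 4.21 in memory-derived cells without and with stimulation and of 5.19 and 4.83 in naive-derived cells. The arrays share their groups, so this likeness is a description.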

How the data were processed

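RNA of cultured pmel-1 CD8 T cells was hybridized to 11 Affymetrix arrays in 4 groups. Per the submitters' processing notes, the authors used Affymetrix Expression Console; the summarization method is not given in the sources used here. The deposited values were read as log10, a base inferred from the hybridization controls and stated nowhere in the files, and they were identical on every array once sorted, as quantile normalization gives. They were converted to log2. The array annotation gave 34945 probe sets 1 symbol, 932 several, and did not list 9160; 64 controls were left out, of 45101 in all. Each gene was represented by its probe set with the highest mean, and probe sets above the 40th percentile of the array on at least 2 arrays were kept.

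Group means were fitted with limma 3.58.1 (lmFit, eBayes) in R 4.3.3, with Benjamini-Hochberg adjustment over all genes, two-sided, at 0.05. The fit was tested on simulated data. The number of arrays limits the precision. Whether cultures came from separate mice is not stated in the sources used here, so p-values measure the spread between these arrays, which may be partly technical. Replicate numbers match the experiment number in the labels, which pairs the arrays. Deviations from group means correlated between -0.0716 and 0.112 (median 0.0341, 15 pairs) within experiments and between -0.131 and 0.112 (median -0.00361, 30 pairs) across them. The experiment was a block in an alternative analysis.

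The members and lists were chosen with earlier results of these data known. All 10 members are named; each list names its 2 largest increases and decreases past the threshold in memory-derived stimulation and in the comparison of origins without stimulation, plus Zap70, Lck, Csk, Pag1, Ubash3b, Dgkd and Rasgrp1. Alternatives varied the scaling, filter, probe set rule, variance prior, samples, blocks and left-out arrays. Promoters came from RefSeq.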

Additional observations from a re-analysis of the deposited data

Results flagged for a closer look

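The response to the final stimulation differed between memory-derived and naive-derived cells by the test of the difference itself for Dgka and Ptpn6. Dgka fell by 1.89 in memory-derived cells and differed by -0.20 in naive-derived cells, a difference in response of 1.69 (adjusted p = 0.0411 in limma). Ptpn6 fell by 2.05 and differed by -0.65, a difference in response of 1.40 (adjusted p = 0.0258). The test reuses the memory-derived unstimulated arrays, on which both genes were highest. With the experiment as a block the adjusted p was 0.0840 for Dgka and 0.0634 for Ptpn6. Without memory-derived unstimulated array 3 the differences in response were 1.35 (adjusted p = 0.0149) and 1.40 (adjusted p = 0.0306). Neither passed without any 1 of the 3 memory-derived stimulated arrays, naive-derived stimulated arrays 1 or 2, or naive-derived unstimulated arrays 1 or 2, where the adjusted p reached 0.139 for Dgka and 0.110 for Ptpn6. Without memory-derived unstimulated array 1 or naive-derived stimulated array 3 Ptpn6 passed and Dgka did not.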

How the results depend on the processing

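The 4 members lower with stimulation of memory-derived cells were past the threshold in all 20 alternatives, and Ptpn6, Ubash3a and Dgkz kept their calls by origin without stimulation in all 19. Leaving out 1 array at a time gave 4 to 4 called members for stimulation in memory-derived cells, 0 to 0 in naive-derived cells, 3 to 5 by origin without stimulation, 0 to 1 by origin with stimulation, and 0 to 2 for the difference in response. The number called for the difference in response was 0 with the experiment as a block, 0 with origin and experiment together as a block, 1 with no filter and 1 with experiments 1 and 2 only, in place of 2. By origin with stimulation it was 1 with only the 2 groups compared, in place of 0. The experiment block changed 3 of 50 member calls, those of Rnf128 by origin without stimulation and of Dgka and Ptpn6 for the difference in response. With the mean of all probe sets of a gene, Ptpn2 turned from -0.04 to 0.38 (adjusted p = 0.0245) with stimulation of memory-derived cells and from -0.04 to 0.41 (adjusted p = 0.0344) by origin without stimulation, since its dim probe sets then count, and Itch gave -0.32 (adjusted p = 0.0361). Of 970 recomputed member results, 46 changed sign with neither value past the threshold, at main sizes of 0.0179 to 0.2673. Among all genes, the difference in response named 401 genes, against 26 with the experiment block, 0 with origin and experiment as a block, 155 with control scaling, 174 with no filter, 1120 with a trended robust prior, 49 with experiments 1 and 2, and 0 to 1505 without 1 array. Stimulation in memory-derived cells named 4675, against 7608 over every probe set and 2755 with experiments 1 and 2; origin without stimulation named 3819, against 6073, 2376 and, without naive-derived unstimulated array 2, 1843. Origin with stimulation named 548, against 258 with experiments 1 and 2 and between 287 and 701 without 1 array; stimulation in naive-derived cells named 2, against 13 with a trended robust prior and between 0 and 5 without 1 array. Control scaling moved the median of all genes by -0.1043 for origin with stimulation and the share of higher calls from 45.6% to 31.1%, for origin without stimulation from 42.2% to 32.5%, and for the difference in response from 59.6% to 49%.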
